A study of Mus musculus with 6 samples.

Results

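The genes described here are the 8 neighbours of Dnaaf5 on mouse chromosome 5 named Prkar1b, Sun1, Get4, Adap1, Cox19, Gpr146, Zfand2a and Micall2. They were chosen by symbol and position and not by a cut on measured values, although earlier results of these data were known. They are not every gene of the region, and all 8 of 8 had a row in the deposited table of 20483 genes. The study examined Dnaaf5, which encodes a cytoplasmic factor needed to assemble the dynein motors of motile cilia. Tracheal epithelial cells were isolated from 3 WT/WT mice and 3 MIS/MIS mice (genotype labels WT and DNAAF5 Mutant), cultured at air-liquid interface and profiled by single-cell RNA-Seq. All 6 mice were 12 weeks old and of strain C57BL/6. The MIS allele carries a cysteine to phenylalanine missense change and a nearby synonymous change, both introduced with CRISPR-Cas9 in C57BL/6 embryos. The MIS line descended from a single edited founder, the WT/WT mice served as littermate controls, and the labels give no treatment or further allele for either group. The comparison asked whether the genes beside the edited locus were measured at other levels in MIS/MIS than in WT/WT cells.

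The neighbours have no common function. Prkar1b encodes a regulatory subunit of cyclic AMP-dependent protein kinase (PKA) best known from neurons, and Sun1 encodes an inner nuclear membrane protein of the LINC complex, which joins the nuclear lamina to the cytoskeleton. Get4 takes part in handing tail-anchored membrane proteins to their insertion machinery. Adap1 encodes an Arf GTPase-activating protein, Cox19 a factor in copper delivery to cytochrome c oxidase, and Gpr146 an orphan G protein-coupled receptor known for its part in cholesterol metabolism. Zfand2a encodes a proteasome-associated zinc finger protein induced by arsenite and heat shock, and Micall2 a Rab13 effector at epithelial junctions.

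Dnaaf5 is annotated by GENCODE at chr5:139150223-139186510 of GRCm38, plus strand. Prkar1b lies on its other side, on the minus strand at chr5:139017306-139150001, so the GENCODE starts of both genes face each other 222 bp apart. RefSeq also places starts of Prkar1b at 139150703, within Dnaaf5, and at 139129752 to 139130477. Which start was used in these cells was not tested. The other 7 neighbours follow the end of Dnaaf5. Sun1 starts 14.1 kb beyond it (chr5:139200637-139249840, plus strand), Get4 65.8 kb (chr5:139252324-139270051, plus), Adap1 85.4 kb (chr5:139271876-139325622, minus) and Cox19 149.7 kb (chr5:139336189-139351418, minus). Gpr146 lies 191.2 kb away (chr5:139377697-139396415, plus), Zfand2a 284.7 kb (chr5:139471211-139484549, minus) and Micall2 520.2 kb (chr5:139706696-139736336, minus). Gpr146 lies within the opposite-strand gene 3110082I17Rik, and Prkar1b and Dnaaf5 are overlapped at their starts by Gm15672. The sources used here do not give how strand was treated in counting, so reads of these overlapping genes may be shared.

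The stretch between the starts of Prkar1b and Dnaaf5 is shown because it is the only sequence here that flanks both a neighbour and the edited gene. It is taken from the RefSeq promoter table (GRCm38.p6), chr5:139150002-139150222, plus strand, 221 bases, and ends at the base before the first annotated base of Dnaaf5. Capitals mark CCAAT and GGGCGG on either strand.
Prkar1b to Dnaaf5: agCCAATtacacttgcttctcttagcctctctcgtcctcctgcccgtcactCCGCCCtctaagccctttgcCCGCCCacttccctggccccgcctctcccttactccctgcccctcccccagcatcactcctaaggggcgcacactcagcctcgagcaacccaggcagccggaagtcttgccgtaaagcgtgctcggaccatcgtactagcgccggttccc
G and C made up 63.3% of it, with 14 CpG dinucleotides. It held 1 CCAAT and 2 GGGCGG, motifs found in 31.1% and 28.6% of 32817 RefSeq promoter windows cut to the same length. GTTGCC and GTTACC, motifs of the RFX factors, and TATAAA had no match in it, against 9.02%, 5.31% and 9.99% of those windows. The full promoter windows run past both ends of the stretch. Those of Dnaaf5 (chr5:139149985-139150284) and of Prkar1b at this start (chr5:139149952-139150251) held 1 GTTGCC each. These windows overlap, so both may hold the same GTTGCC. The Prkar1b window of another start (chr5:139150654-139150953) held 1 GTTACC. Of all full windows, 12.5% held GTTGCC and 7.22% held GTTACC. The window of Zfand2a also held 1 GTTGCC. The edit lies within a coding exon of Dnaaf5 and outside this stretch.

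The deposited table held 23871 cells in 16 clusters named by the authors. Clusters of 1 name were joined into classes of 4823 multiciliated, 7731 secretory and 11126 basal cells, beside 163 neuroendocrine cells and 28 ionocytes. Each mouse gave 2673 to 6710 cells, and UMIs (counted molecules) summed per mouse and class ranged from 13525483 to 73216051. Levels are given as CPM, a gene's UMIs scaled to a fixed total of UMIs of that mouse and class. Of 23804 barcode sequences, 67 occurred in more than 1 mouse. The summed level of 4 multiciliated markers was 2679 to 3333 CPM in multiciliated, 15.5 to 33.9 CPM in secretory and 14.1 to 30.7 CPM in basal cells. Basal markers in basal cells summed to 1018 to 2308 CPM in WT/WT and 718 to 1081 CPM in MIS/MIS mice. Secretory markers were not confined to their class. They summed to 1202 to 1994 CPM in WT/WT and 1809 to 3943 CPM in MIS/MIS basal cells. In multiciliated cells they summed to 757 to 2352 CPM, and in secretory cells to 14521 to 39383 CPM. Fibroblast markers in basal cells reached 78.3 CPM in a WT/WT mouse and at most 0.306 CPM in MIS/MIS mice.

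Dnaaf5 itself was measured first. Since the MIS allele changes single bases, its counts cannot show which allele a mouse carries. In multiciliated cells, Dnaaf5 was at 42.1, 38.2 and 49.4 CPM in WT1, WT2 and WT3 and at 54.8, 54.9 and 49.3 CPM in MT1301, MT1306 and MT1383. The genotypes overlapped narrowly, since MT1383 fell just below WT3. The log2 difference (MIS/MIS over WT/WT) was 0.28 with a 95% confidence interval of 0.027 to 0.52, an unadjusted p of 0.0338 and an adjusted p of 0.896 (limma voom, Benjamini-Hochberg over 14206 genes). In secretory and basal cells, Dnaaf5 was at 5.27 to 7.64 CPM in all 6 mice, and the log2 differences were 0.16 (interval -0.17 to 0.49) and 0.12 (interval -0.25 to 0.48).

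Over all cells of a mouse, the order was different. Dnaaf5 was at 9.87 to 13.6 CPM in WT/WT and 15.2 to 21.2 CPM in MIS/MIS mice, without overlap, and Prkar1b at 0.50 to 1.30 and 1.03 to 1.98 CPM. Multiciliated cells made up 11.7% to 16.2% of the cells of WT/WT mice and 16.2% to 32.1% of those of MIS/MIS mice. In a whole-culture sum, more cells of a type and more RNA per cell cannot be told apart, and the comparisons below were made within classes.

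The neighbours followed cell type in different ways, as the plot of levels by cluster shows. These levels are a description with no test, since the clusters were made from the same cells.

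**Figure D1:**
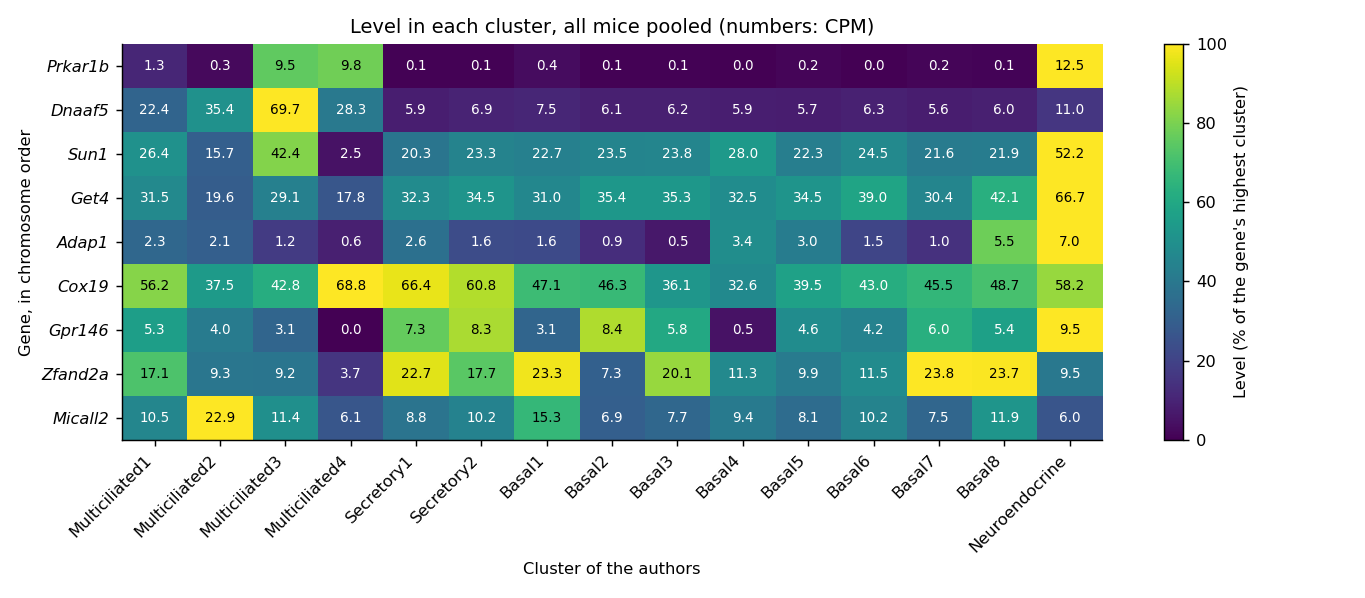
Level of Dnaaf5 and its 8 neighbours (rows, in chromosome order) in the 15 clusters of at least 100 cells (columns), all 6 mice pooled; printed numbers are CPM and colour is the percent of the gene's highest cluster. Prkar1b is brightest in neuroendocrine cells, Multiciliated4 and Multiciliated3 and Dnaaf5 in Multiciliated3, while Cox19 and Get4 are present throughout.

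Prkar1b, the regulatory PKA subunit whose GENCODE start lies beside that of Dnaaf5, was measured mainly in multiciliated cells and in the small neuroendocrine and ionocyte clusters. Multiciliated cells held 88.4% of its 886 UMIs, and the cluster Multiciliated3 alone held 79.5%. It was at 9.24 ± 2.61 CPM (SD, n = 6 mice) in Multiciliated3, at 1.17 ± 0.66 CPM in Multiciliated1 and at 0.29 ± 0.28 CPM in Multiciliated2. Ranges over mice did not overlap between Multiciliated3 and Multiciliated1. In 163 neuroendocrine cells it had 25 UMIs (12.5 CPM, exact Poisson 95% interval 8.11 to 18.5), and 108 of those cells came from MT1383. In 28 ionocytes it had 6 UMIs (8.65 CPM, interval 3.17 to 18.8). All 6 came from MT1383, with 0 in WT1 and WT3, and the other mice had no ionocytes. In secretory and basal cells, its level was 0.0173 to 0.289 CPM in the 6 mice, from 22 and 50 UMIs. Dnaaf5 was highest in Multiciliated3 (68.4 ± 6.09 CPM, n = 6), but it stayed at 34.2 ± 5.32 CPM in Multiciliated2, where Prkar1b had 12 UMIs in all. Over the 15 clusters, Pearson's r between both genes' log2(CPM + 1) was 0.69, a description over clusters that share the same 6 libraries.

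Prkar1a, which encodes the related type I alpha subunit, was present in every class. It was at 214 ± 6.24 CPM in multiciliated, 136 ± 11.1 in secretory and 151 ± 18.7 in basal cells (SD, n = 6 mice).

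By mouse, Prkar1b in multiciliated cells was at 2.74, 3.95 and 6.90 CPM in WT1, WT2 and WT3 and at 5.98, 6.36 and 4.98 CPM in MT1301, MT1306 and MT1383. WT/WT mice held both the lowest and the highest level, so the genotypes overlapped. The log2 difference was 0.32 with an interval of -0.33 to 0.98, a range that runs from 0.798-fold to 1.97-fold. In secretory and basal cells, Prkar1b did not pass the filter on low counts and was not tested.

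Sun1, the nuclear envelope gene next to the end of Dnaaf5, was highest in Multiciliated3 among the clusters with at least 20 cells in every mouse (42.2 ± 3.91 CPM, n = 6). It fell to 15.7 ± 1.57 CPM in Multiciliated2, below both secretory and all 8 basal clusters. In Multiciliated4, a cluster of 146 cells, Sun1 had 4 UMIs (2.46 CPM, exact Poisson 95% interval 0.670 to 6.29, counting error only). Multiciliated4 also stood apart by a median of 10197 UMIs per cell against 26360 in Multiciliated3, and by a median mitochondrial share of 1.29% against 8.51%. In the same cluster, Prkar1b was at 9.83 CPM (interval 5.62 to 16.0) and Dnaaf5 at 28.3 CPM (interval 20.7 to 37.7). Gpr146 had no UMI there, which allows a level of up to 1.84 CPM when the limit is set at 3 counts and up to 2.27 CPM by the exact Poisson interval used above.

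Sun1 differed little between mice. In multiciliated cells it was at 34.0, 27.3 and 32.4 CPM in WT1, WT2 and WT3 and at 29.3, 34.7 and 31.8 CPM in MT1301, MT1306 and MT1383. WT2 was lowest and MT1306 highest, with WT1 next to it, so the genotypes were interleaved. Its log2 difference was 0.020 (interval -0.24 to 0.28) in multiciliated, 0.0053 (-0.20 to 0.21) in secretory and -0.054 (-0.37 to 0.26) in basal cells. These intervals leave room for changes of at most 1.21-fold up and 0.775-fold down. Its paralogue Sun2 was on average lowest in multiciliated cells, at 9.51 ± 0.757 CPM. It was at 12.3 ± 1.24 CPM in secretory and 16.9 ± 2.40 CPM in basal cells (n = 6 mice).

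Get4, the tail-anchored protein factor, was measured at similar levels in most clusters, with mouse means from 28.7 to 40.8 CPM in the secretory and basal clusters. It was lower in Multiciliated2 (19.6 ± 2.34 CPM, n = 6) than in Multiciliated3 (28.9 ± 1.55 CPM), and their ranges over mice did not overlap. Its multiciliated level was below the secretory and the basal level in all 6 mice. In multiciliated cells Get4 was at 28.2, 25.8 and 27.1 CPM in WT1, WT2 and WT3 and at 27.1, 29.5 and 26.9 CPM in MT1301, MT1306 and MT1383. The log2 difference was 0.020 (interval -0.18 to 0.22), the tightest interval of the 8 neighbours after that of Cox19. In secretory and basal cells the log2 differences were -0.0077 (-0.18 to 0.16) and 0.0087 (-0.24 to 0.26).

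Adap1, the Arf GTPase-activating protein, had 1479 UMIs in all and wide intervals. Its level was 0.37 ± 0.21 CPM in Basal3 and 4.41 ± 1.94 CPM in Basal8. In basal cells it was at 3.10, 1.23 and 1.55 CPM in WT1, WT2 and WT3 and at 1.89, 1.29 and 1.62 CPM in MT1301, MT1306 and MT1383. WT1 stood alone, and the other 5 mice were at 1.23 to 1.89 CPM. In these cells the log2 difference was -0.27 with an interval of -1.24 to 0.71 and turned to 0.19 without WT1. In multiciliated and secretory cells it was 0.030 (-0.58 to 0.64) and 0.014 (-0.44 to 0.47). Adap2, its paralogue, was at most at 0.258 CPM in any mouse and class.

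Cox19, the copper chaperone of cytochrome c oxidase, was the neighbour with the most UMIs (37943). It was at 60.1 to 65.6 CPM in the secretory clusters and at 28.8 to 49.2 CPM in the basal clusters (means over mice with at least 20 cells). In the multiciliated clusters the means ran from 36.4 CPM in Multiciliated2 to 55.6 CPM in Multiciliated1 and 70.4 CPM in the small Multiciliated4. The secretory level exceeded the basal level in all 6 mice by 1.37-fold to 1.77-fold. In secretory cells it was at 64.5, 70.4 and 60.6 CPM in WT1, WT2 and WT3 and at 58.5, 60.5 and 68.1 CPM in MT1301, MT1306 and MT1383. The genotypes overlapped nearly completely. MIS/MIS and WT/WT cells differed on the log2 scale by -0.061 (interval -0.25 to 0.13) in multiciliated, -0.065 (-0.29 to 0.16) in secretory and 0.052 (-0.16 to 0.27) in basal cells.

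Gpr146, the orphan receptor, was lower in multiciliated than in secretory cells in all 6 mice, at a median of 0.486-fold. Among basal clusters it was at 8.05 ± 2.48 CPM in Basal2 (n = 6) and at 0.31 ± 0.26 CPM in Basal4 (n = 4 mice with at least 20 cells). Its host gene 3110082I17Rik had another order, at 22.1 ± 3.92 CPM in multiciliated, 6.22 ± 0.919 in secretory and 7.14 ± 0.881 CPM in basal cells (SD, n = 6). In basal cells, Gpr146 was at 3.04, 4.79 and 3.68 CPM in WT1, WT2 and WT3 and at 4.34, 6.01 and 6.19 CPM in MT1301, MT1306 and MT1383. MIS/MIS mice were higher on average, with WT2 above MT1301. The log2 difference was 0.47 with an interval of -0.070 to 1.01 and an unadjusted p of 0.0779 (limma voom), the largest of the neighbours in any class. In multiciliated cells the sign was the opposite, at -0.28 (interval -0.76 to 0.19), and in secretory cells it was 0.014 (-0.38 to 0.41).

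Cluster make-up moved with the basal value of Gpr146. Of the 1365 cells of Basal4, 1048 came from WT1, and of the 2269 cells of Basal2, 1295 came from MT1383. Without the Basal4 cells the log2 difference was 0.17, and with the same weights for Basal1, Basal2, Basal3 and Basal6 in every mouse it was 0.11. Both are alternatives added after the data were seen.

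Zfand2a, the gene induced by heat shock and arsenite, was spread widely among MIS/MIS mice. In multiciliated cells it was at 9.83, 13.01 and 14.2 CPM in WT1, WT2 and WT3 and at 15.1, 9.90 and 8.87 CPM in MT1301, MT1306 and MT1383. In secretory cells the levels were 18.6, 23.2 and 19.8 CPM in WT1, WT2 and WT3 and 27.2, 18.9 and 11.6 CPM in MT1301, MT1306 and MT1383. In basal cells they were 13.9, 17.4 and 14.5 CPM in WT1, WT2 and WT3 and 24.8, 15.3 and 10.9 CPM in MT1301, MT1306 and MT1383. In every class MT1301 was highest and MT1383 lowest, so MIS/MIS mice spanned the whole range and WT/WT mice lay within it. Basal2, where pooled cells had 7.26 CPM, held 1295 cells of MT1383 and 122 of MT1301. Basal3, at 20.1 CPM, held 102 and 692. Within Basal1 and Basal2 the SD was larger over WT/WT mice (7.003 and 1.77 CPM) than over MIS/MIS mice (1.87 and 1.56 CPM). In Basal3 and Basal6 it was smaller over WT/WT (2.48 and 0.604 CPM) than over MIS/MIS mice (8.702 and 4.25 CPM). The part of cluster make-up in the basal spread was not tested. Zfand2a had a log2 difference of -0.26 (interval -0.79 to 0.26) in multiciliated, -0.16 (-0.81 to 0.48) in secretory and 0.039 (-0.66 to 0.74) in basal cells. Zfand2b, its paralogue, was at 28.4 ± 1.22 CPM in secretory cells against 19.9 ± 5.21 CPM for Zfand2a (SD, n = 6), so its spread between mice was smaller.

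The sequence before Zfand2a is shown for the heat shock element it holds. It is taken from the RefSeq promoter table (GRCm38.p6), chr5:139484550-139484741, minus strand, 192 bases, ending before the first annotated base of the gene. Capitals mark TTCNNGAA, 1 phase of the element that heat shock factor recognises, and CCAAT, on either strand.
Zfand2a: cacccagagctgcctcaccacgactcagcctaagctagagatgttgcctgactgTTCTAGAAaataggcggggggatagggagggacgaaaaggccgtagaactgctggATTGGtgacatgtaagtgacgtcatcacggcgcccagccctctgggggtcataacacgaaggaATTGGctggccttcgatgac
TTCNNGAA occurred 1 time and was found in 5.43% of RefSeq windows cut to this length. CCAAT occurred 2 times, against 27.1% of windows with any. The other phase, GAANNTTC, had no match, against 4.95% of windows. GTTGCC, which is not marked, occurred 1 time, against 7.71% of windows.

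Other heat shock genes followed the order of the mice in part. Of 11 further genes of a heat shock and proteotoxic stress list, 10 were lowest in MT1383 and 6 were highest in MT1301 in secretory cells, against 35.1% and 18.3% of all genes tested there. In multiciliated cells 6 of 11 were lowest in MT1383 and 1 was highest in MT1301, against 8.49% and 12.1% of all genes. In basal cells 2 of 11 were lowest in MT1383 and 2 highest in MT1301, against 14.2% and 17.2%. As examples chosen after their values were seen, Bag3, a co-chaperone of Hsp70, had the same extremes as Zfand2a in secretory cells, from 42.0 CPM in MT1383 to 64.3 CPM in MT1301. Hspb1, a small heat shock protein, had another order. In basal cells it was at 1270 CPM in WT1 and at 497 CPM in both WT2 and MT1301. MT1383 had the most cells (6710) and the lowest median depth (21328 UMIs per cell), and the part of depth in these orders was not tested.

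Micall2, the Rab13 effector, was highest in Multiciliated2 (23.2 ± 2.43 CPM, n = 6), above Basal1 (15.9 ± 2.42 CPM) and without overlap between mice. It was at 11.3 ± 1.21 CPM in Multiciliated3, the reverse of the order seen for Prkar1b, Sun1 and Dnaaf5. In multiciliated cells Micall2 was at 12.2, 17.7 and 15 CPM in WT1, WT2 and WT3 and at 14.8, 10.9 and 13.3 CPM in MT1301, MT1306 and MT1383. WT2 was highest and MT1306 lowest. Multiciliated2 made up 34.7% of the multiciliated cells of WT2 and 8.45% of those of MT1306. The log2 difference was -0.24 (interval -0.61 to 0.13) over all multiciliated cells and -0.00081 within Multiciliated3. In secretory and basal cells it was 0.033 (-0.46 to 0.52) and -0.0046 (-0.33 to 0.32). Its paralogue Micall1 was at 15.1 ± 1.15 CPM in multiciliated, 15.04 ± 1.76 in secretory and 27.1 ± 3.09 CPM in basal cells (SD, n = 6 mice).

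**Figure D2:**
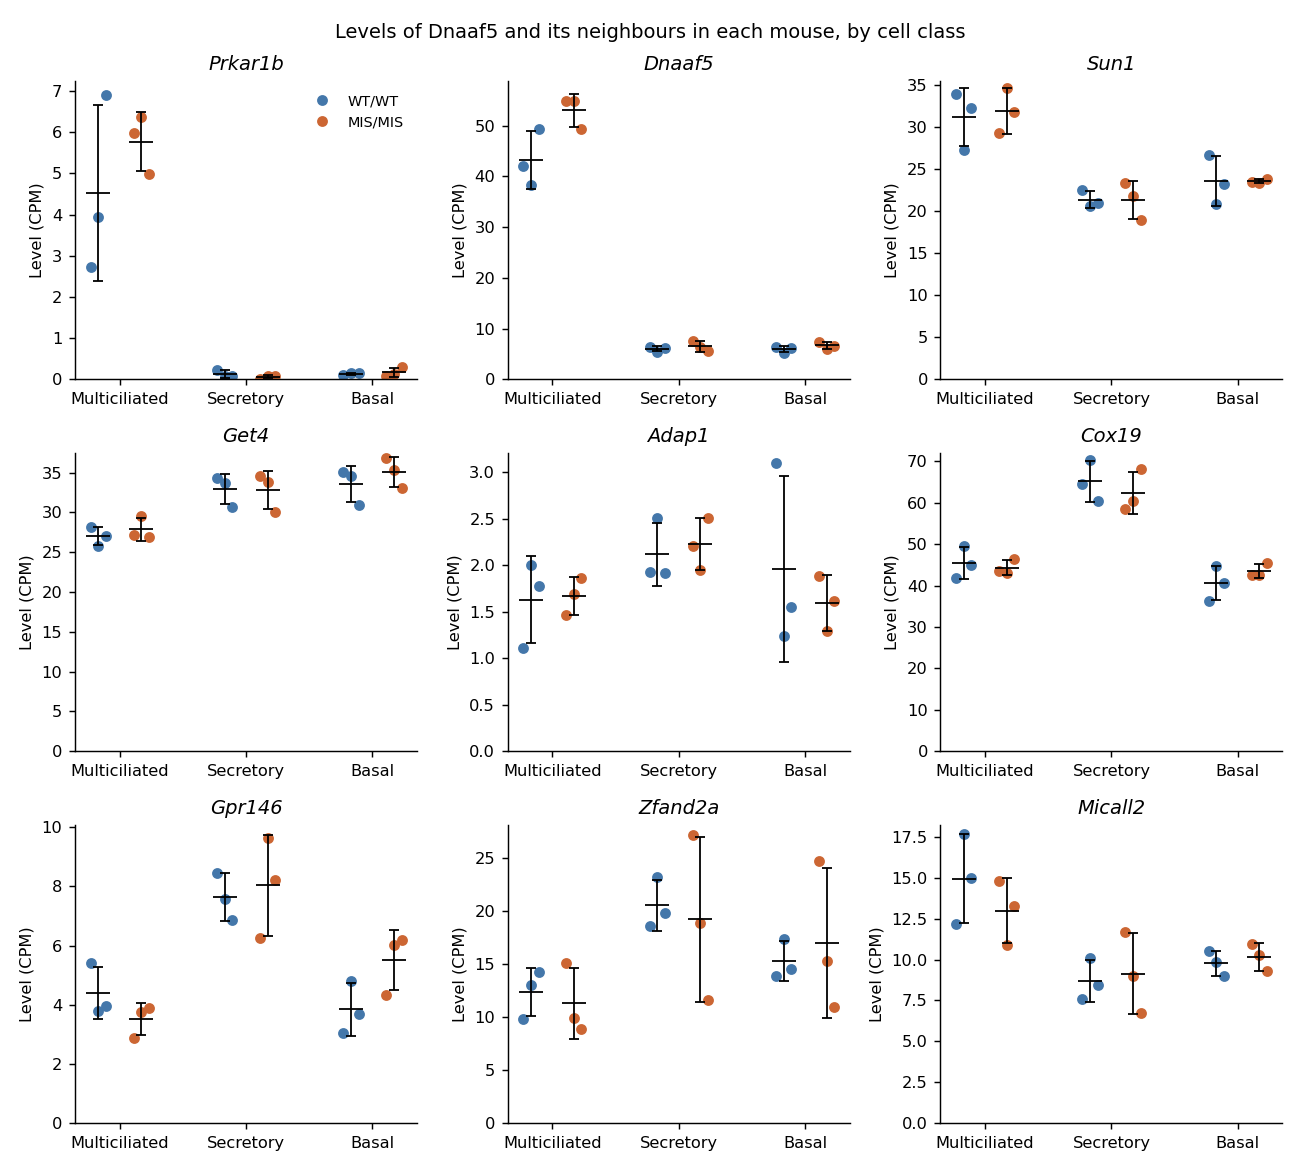
Level (CPM, y axis from 0) of each gene in multiciliated, secretory and basal cells; each point is a mouse (3 WT/WT and 3 MIS/MIS), lines are the mean and SD of a genotype. The genotypes overlap in every panel and class, and in basal cells the MIS/MIS points of Zfand2a run from 10.9 to 24.8 CPM.

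None of the neighbours differed between genotypes beyond the spread between mice. In multiciliated cells 0 of 8 passed an adjusted p of 0.05 (limma voom), against 0.00704% of the 14206 genes tested, and 0 of 8 had an unadjusted p below 0.05, against 614 genes. In secretory cells 0 of 7 passed, against 0.00735% of 13610 genes, and in basal cells 0 of 7, against 0% of 14615 genes, with 0 of 7 below 0.05 unadjusted in both, against 258 and 334 genes. Limma-trend likewise gave 0 at either threshold in every class. Levels of WT/WT and MIS/MIS mice separated without overlap for 0 of 8, 0 of 7 and 0 of 7 neighbours, against 10.0%, 5.50% and 7.96% of all genes tested in multiciliated, secretory and basal cells. Adjusted p-values of the neighbours were 0.896 to 0.985 in multiciliated cells. The single gene past the threshold, in multiciliated and in secretory cells, was Wdfy1 on chromosome 1. An adjusted p above the threshold does not show that the levels were equal, and the intervals above give the changes that remain possible.

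**Figure D3:**
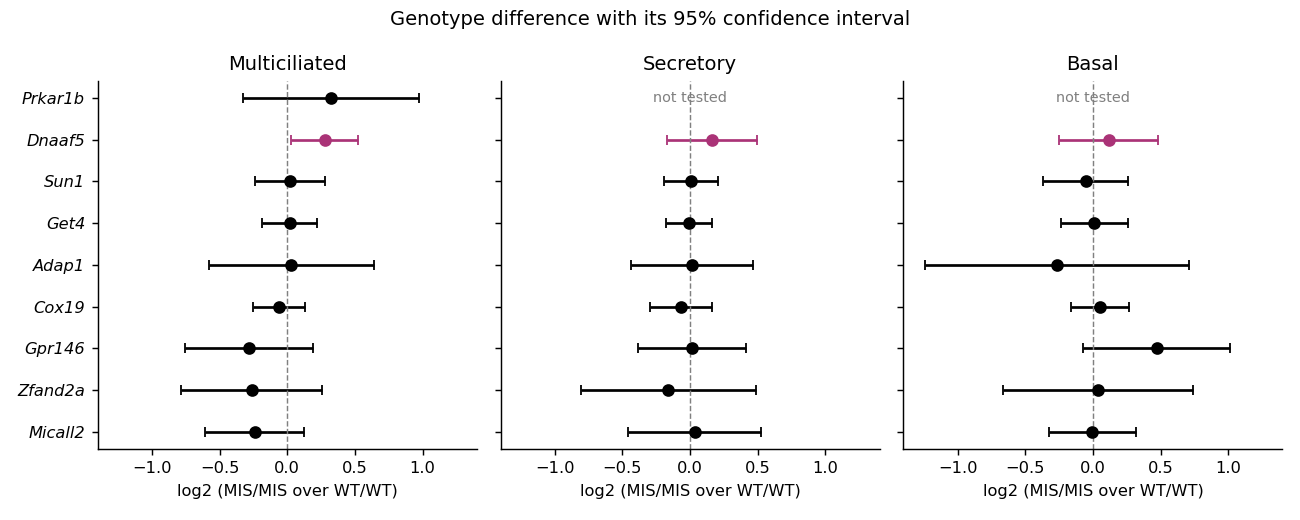
Log2 ratio of MIS/MIS over WT/WT (x axis) with 95% confidence intervals from limma voom for each neighbour (black) and Dnaaf5 (purple) in 3 cell classes, genes in chromosome order. Every interval of a neighbour includes 0.

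The size of the intervals set what could be seen. Across the neighbours the median half-width was 0.42 on the log2 scale in multiciliated, 0.40 in secretory and 0.32 in basal cells, against 0.32, 0.29 and 0.42 for all genes tested. The median log2 difference of the neighbours was -0.020, 0.0053 and 0.0087, against 0.0066, -0.0044 and -0.0069 for all genes. In each class 4 neighbours were higher and the rest lower in MIS/MIS cells.

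Cluster make-up differed between mice in the multiciliated class as well. Multiciliated3, where Prkar1b, Sun1 and Dnaaf5 were high, made up 43.0% to 58.9% of multiciliated cells in WT/WT and 55.0% to 70.2% in MIS/MIS mice. With the same cluster weights in every mouse, the log2 difference moved from 0.32 to 0.13 for Prkar1b, from 0.28 to 0.17 for Dnaaf5, from -0.24 to -0.14 for Micall2 and from -0.28 to -0.22 for Gpr146. Within Multiciliated3 alone it was 0.13 for Prkar1b, 0.13 for Dnaaf5 and -0.16 for Gpr146. Adap1 moved to 1.52 there, with an unadjusted p of 0.0952 (limma voom). It had 90 UMIs in that cluster over all mice, and 0 in the mouse with the fewest. Its means there were 0.736 ± 0.670 CPM in WT/WT and 1.32 ± 0.412 CPM in MIS/MIS mice (SD), a log2 ratio of 0.844.

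**Figure D4:**
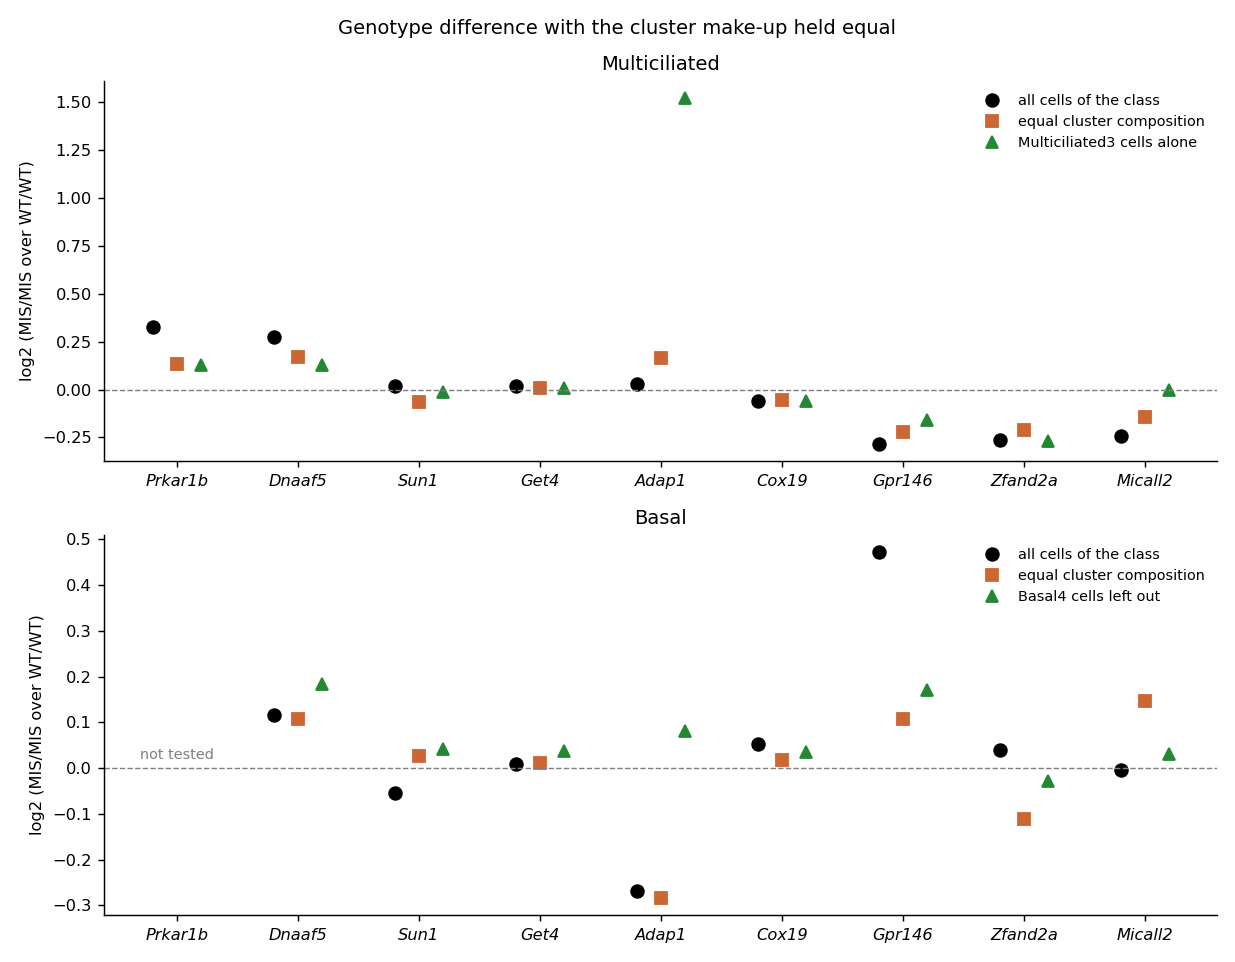
Log2 ratio of MIS/MIS over WT/WT (y axis) of each gene in multiciliated (top) and basal cells (bottom). Series are all cells of the class, the same cluster weights in every mouse, and Multiciliated3 alone or basal cells without Basal4. The weights are the mean cluster shares over the mice, in basal cells for Basal1, Basal2, Basal3 and Basal6 only. Prkar1b and Gpr146 move toward 0, and Adap1 in Multiciliated3 stands apart at 1.52, from counts that fall to 0 in the lowest mouse.

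Whether the genotype difference itself differed between classes was tested on within-mouse differences. None of the 7 neighbours tested passed an adjusted p of 0.05 (limma-trend) between multiciliated and secretory, multiciliated and basal, or secretory and basal cells, against 0%, 0% and 0% of 13054, 13381 and 13481 genes. Gpr146 alone had an unadjusted p below 0.05, where 402 and 418 of all genes tested did. Its log2 difference was lower in multiciliated than in secretory cells by 0.40 (value -0.40, interval -0.79 to -0.0058, unadjusted p of 0.0474) and lower than in basal cells (value -0.81, interval -1.49 to -0.13, unadjusted p of 0.0250). Their adjusted p-values were 0.994 and 0.9999. Prkar1b could not be tested here. The basal term of the latter holds the Basal4 and Basal2 cells described above.

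The neighbours were then set beside the rest of the region. Within 1 Mb of Dnaaf5 the annotation lists 77 other genes, of which 42 are protein coding and 40 were in the table. Of the 32 that are not neighbours named here, 22, 24 and 26 were tested in multiciliated, secretory and basal cells, and 0, 0 and 0 passed the threshold (limma voom). Of these, 2 of 22, 2 of 24 and 0 of 26 had an unadjusted p below 0.05, against 614 of 14206, 258 of 13610 and 334 of 14615 genes tested, and 17, 15 and 12 were higher in MIS/MIS cells, against 7321, 6593 and 7013. Pdgfa, which encodes a platelet-derived growth factor chain and lies 152853 bp from Dnaaf5 beyond Prkar1b, was below 0.05 unadjusted in both multiciliated and secretory cells, and is named after its values were seen. It was at 68.0 ± 3.44 CPM in WT/WT and 83.1 ± 2.23 CPM in MIS/MIS multiciliated cells and at 48.4 ± 2.26 and 56.2 ± 3.17 CPM in secretory cells (SD over 3 mice each), without overlap in either class. Its log2 differences were 0.27 (interval 0.094 to 0.44, unadjusted p of 0.00745, adjusted 0.896) and 0.22 (interval 0.044 to 0.39, unadjusted p of 0.0207, adjusted 0.9997) by limma voom. In basal cells, where the genotypes overlapped, the log2 difference was 0.26 (-0.11 to 0.63). Over the genes of the region that are not among the 8 neighbours, the median log2 difference was 0.073, 0.029 and -0.034. By distance, the median absolute log2 difference in multiciliated cells was 0.11 within 1 Mb, 0.10 from 1 to 5 Mb, 0.13 from 5 to 20 Mb and 0.12 farther along chromosome 5, against 0.11 over all genes. The same medians in secretory cells were 0.048, 0.067, 0.078 and 0.077, against 0.077 over all genes. In basal cells they were 0.070, 0.096, 0.094 and 0.11, against 0.11 over all genes.

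**Figure D5:**
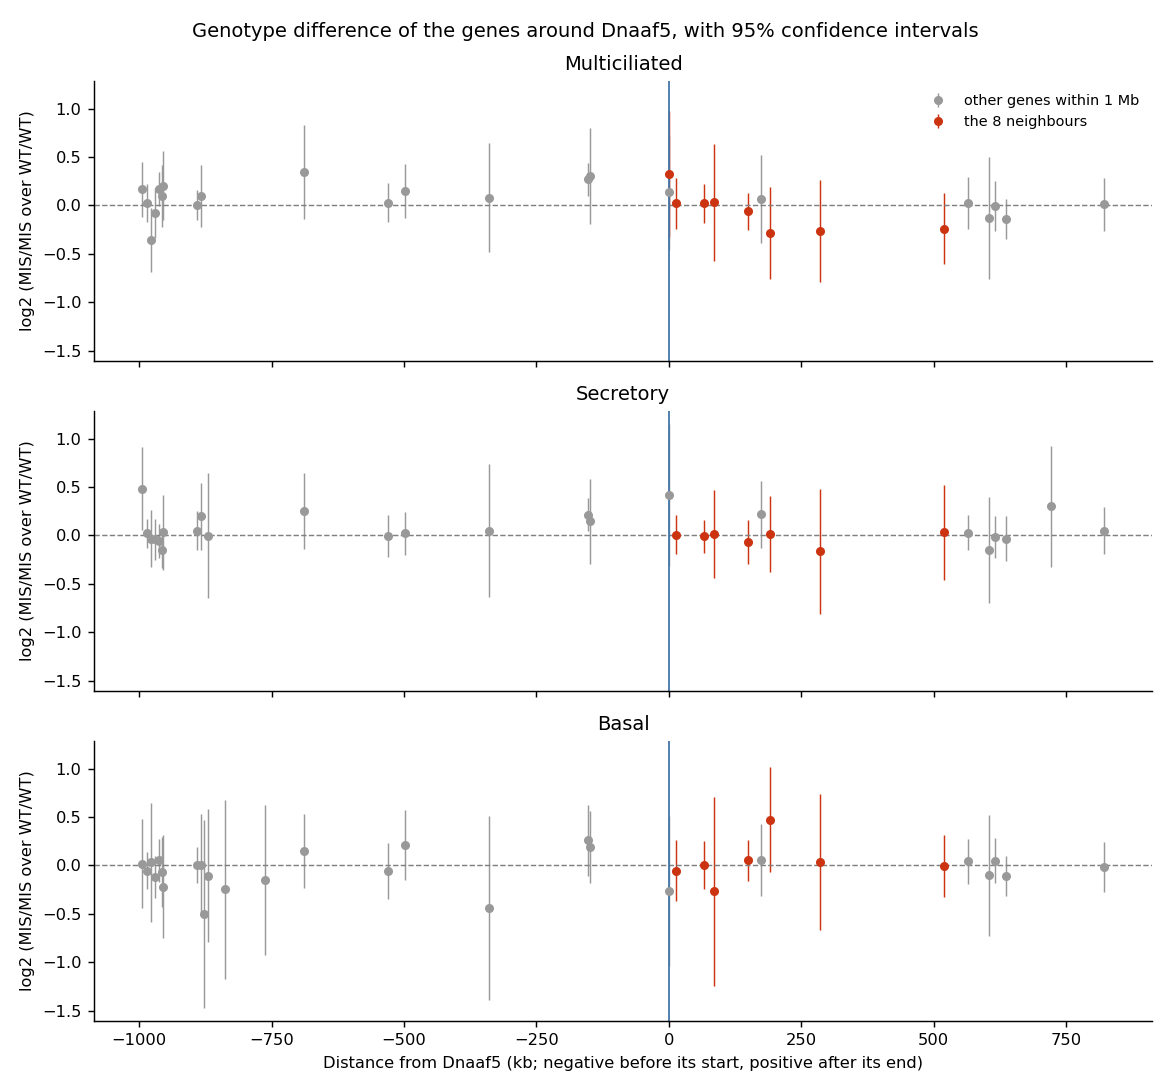
Log2 ratio of MIS/MIS over WT/WT (y axis) with 95% confidence intervals for each tested gene within 1 Mb of Dnaaf5, by distance from the gene (x axis, kb), in 3 cell classes; red points are the 8 neighbours. Red and grey points scatter about 0 on both sides, and 0 of them passed the adjusted threshold.

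The pathways of the neighbours were examined by lists that each include the neighbour itself. No gene of the PKA subunit, LINC and lamina, tail-anchored insertion, Arf GTPase-activating, cytochrome oxidase copper assembly, heat shock or MICAL and Rab13 lists passed the threshold in any of the 3 classes (limma voom). In multiciliated cells, 3 of 12 heat shock genes had an unadjusted p below 0.05 (limma voom), against 614 of 14206 genes tested. These were Hspa1a, Hspa1b and Hspb1, all lower in MIS/MIS cells and named after their values were seen. Hspb1 itself lies on chromosome 5, between 1 and 5 Mb from Dnaaf5. In the heat shock list 1 of 12 was higher in MIS/MIS cells, against 7321 of 14206 genes tested. The median log2 difference of that list was -0.089, -0.096 and -0.093 in multiciliated, secretory and basal cells. The medians of the other lists lay from -0.12 to 0.093. PKA subunits had a median of 0.093 in multiciliated cells, with 5 of 6 higher in MIS/MIS cells, against 7321 of 14206 genes tested. None had an unadjusted p below 0.05 (limma voom). In secretory cells their median was -0.0026, with 2 of 5 higher, against 6593 of 13610 genes. In basal cells it was 0.012, with 3 of 5 higher, against 7013 of 14615 genes.

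Finally, genes with the most similar pattern over the 15 clusters were listed for each neighbour, by Pearson's r of log2(CPM + 1) among 12988 genes tested in all classes. For Prkar1b these were Plk5 (r = 0.99), Mt3 and Gnmt (both 0.98), and for Dnaaf5 they were Kbtbd4, Cfap74 and Lca5l (0.99 each). Sun1 was nearest to Sbf2, Atad1 and Akap10 (0.98 each), and Get4 to Tubgcp5, Dpm3 and Zdhhc9 (0.93 to 0.94). Gpr146 was nearest to Slco3a1, Spcs2 and Nr2f2 (0.91 to 0.95), Zfand2a to Ywhag, Il4ra and Sowahb (0.91 to 0.92) and Micall2 to Lpcat4, Agpat3 and 5430427N15Rik (0.88 to 0.90). Cox19 had Map1lc3a, Stard10 and Wbp1 (0.85 to 0.87) and Adap1 had Tmprss4, Dnm2 and Cox15 (0.83 each). Among the neighbours themselves, r ran from -0.56 between Prkar1b and Zfand2a to 0.74 between Sun1 and Get4. All of these are descriptions of 15 clusters from the same 6 libraries.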

How the data were processed

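Tracheal epithelial cells of 3 WT/WT and 3 MIS/MIS mice were measured by droplet single-cell RNA-Seq with unique molecular identifiers. The deposited table holds UMI counts per gene and cell, which the authors made with Cell Ranger (version 7.1.0 and build mm10 in the submitters' processing notes), filtered and clustered with Seurat, and named by hand. The study's methods name cells with more than 7500 detected genes as potential doublets to be removed, yet 655 of the deposited cells lie above that limit, with up to 7999 genes. All were kept as deposited, and no doublet caller was run. Every value was checked to be a whole number, and cell totals matched the deposited cell table for all 23871 cells. The mouse prefix of each cell gave its mouse. The prefixes of MIS/MIS mice match the genotype but no single sample label, so each was used as a replicate without a label of its own.

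Counts were summed per mouse and class, and CPM computed per sum. Genes with about 10 counts in the median library in at least 3 mice and 15 in total were tested with limma 3.58.1 voom (R 4.3.3), with TMM factors, Benjamini-Hochberg adjustment over all genes tested and a threshold of 0.05. Differences between classes were tested with limma-trend on within-mouse differences. Tables were made with Python 3.11.15 and pandas 2.3.3. The fits were tested on simulated data. Named genes were the 8 neighbours, Dnaaf5, paralogues, genes past the threshold and the 3 most similar genes per neighbour, beside exceptions marked in the text. Members and lists were chosen with earlier results of these data known. Alternatives were other scalings, limma-trend, no filter, equal cluster make-up, single clusters and leaving out each mouse. Intervals on sums of UMIs cover counting error only.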

Additional observations from a re-analysis of the deposited data

How the results depend on the processing

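No neighbour passed the adjusted threshold under any alternative run. Of 452 single-gene values, 377 kept their direction and 75 reversed, with a lowest adjusted p of 0.525. No paired analysis was possible, since the labels give no litter or other pairing of the mice. The sample titles number the animals in both genotypes, while the columns of MIS/MIS mice carry animal numbers that match no title number. The edgeR quasi-likelihood alternative was not run, since the separators of the deposited table kept it from being recorded as counts.

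Over all genes, the 1 call in multiciliated cells became 3 in Multiciliated3 alone and 2 with equal cluster make-up. The 1 call in secretory cells became 0 with upper-quartile scaling and 0 to 0 on leaving out single mice. The 0 calls in basal cells became 1 with equal cluster make-up. The causes were not tested.

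Values that reversed lay near 0 in most cases. In multiciliated cells Sun1 was -0.013 in Multiciliated3 and -0.063 with equal make-up. In secretory cells Sun1 was -0.0053 with limma-trend and Get4 0.0051 with upper-quartile scaling. In basal cells Micall2 was 0.0011 with limma-trend, 0.00067 with median-of-ratios scaling, 0.00087 without the filter, 0.017 with upper-quartile scaling, 0.15 with equal make-up and 0.031 without Basal4. With equal make-up and without Basal4, basal Sun1 was 0.026 and 0.042 and Zfand2a -0.11 and -0.029, and Adap1 was 0.082 without Basal4. With upper-quartile scaling, the class difference of Cox19 between multiciliated and secretory cells was -0.0034 and that of Get4 between multiciliated and basal cells -0.018.

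On leaving out single mice, the values that reversed are given first. Multiciliated values ran from -0.081 to 0.089 for Sun1, -0.024 to 0.058 for Get4, -0.17 to 0.20 for Adap1 and -0.10 to 0.0036 for Cox19. Secretory values ran from -0.060 to 0.072 for Sun1, -0.046 to 0.034 for Get4, -0.080 to 0.21 for Adap1, -0.15 to 0.0024 for Cox19, -0.099 to 0.24 for Gpr146, -0.49 to 0.13 for Zfand2a and -0.20 to 0.21 for Micall2. Basal values ran from -0.14 to 0.086 for Sun1, -0.063 to 0.087 for Get4, -0.54 to 0.19 for Adap1, -0.30 to 0.33 for Zfand2a and -0.080 to 0.099 for Micall2. Differences between multiciliated and secretory cells ran from -0.058 to 0.14 for Sun1, -0.031 to 0.080 for Get4, -0.20 to 0.090 for Adap1, -0.029 to 0.068 for Cox19 and -0.14 to 0.11 for Zfand2a. Between multiciliated and basal cells they ran from -0.0097 to 0.12 for Sun1, -0.043 to 0.079 for Get4 and -0.37 to 0.73 for Adap1. Between secretory and basal cells they ran from -0.057 to 0.12 for Sun1, -0.067 to 0.023 for Get4, -0.17 to 0.74 for Adap1, -0.15 to 0.17 for Micall2 and -0.056 to 0.089 for Dnaaf5. Other values kept their direction. Multiciliated Prkar1b ran from 0.080 to 0.67 and Gpr146 from -0.39 to -0.14. Multiciliated Zfand2a ran from -0.46 to -0.038 and Micall2 from -0.35 to -0.10. Basal Gpr146 ran from 0.35 to 0.66. The lowest unadjusted p was 0.0359 for Prkar1b and 0.0251 for Zfand2a in multiciliated cells (limma voom). It was 0.0454 for Zfand2a in secretory and 0.0222 for Gpr146 in basal cells.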
